A study of Mus musculus with 12 samples.

Results

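Histone deacetylases remove acetyl groups from lysines of histones and other proteins, and the zinc-dependent enzymes of this family are encoded by the Hdac genes. The transcripts of 10 such genes were followed through mouse terminal erythroid differentiation. They were Hdac1, Hdac2, Hdac3 and Hdac8 of class I, Hdac4, Hdac5 and Hdac7 of class IIa, Hdac6 and Hdac10 of class IIb, and Hdac11 of class IV. The genes were taken by symbol, and all 10 were found once among the 29838 genes of the expression table. All 10 also belonged to the 12994 genes that reached 1 FPKM in at least 3 libraries and were tested. FPKM is the number of fragments scaled by transcript length and library size, so that levels of different genes can be compared per length.

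The cells were bone marrow erythroblasts of wild-type (WT) C57BL/6 mice, which were male, 8 weeks old and untreated. CD45-depleted marrow was stained, and live cells negative for CD45, CD11b and GR1, a gate that should remove neutrophils and macrophages, were kept. Of these, proerythroblasts (Pro) were sorted as CD44 high and Ter119 low, and basophilic (Baso), polychromatic (Poly) and orthochromatic (Ortho) erythroblasts were sorted from Ter119+ cells by CD44 and forward scatter. There were 3 libraries per stage and 12 over the 4 stages. Ortho libraries 2 and 3 were labelled only as erythroblasts by cell type and were assigned by their titles. The labels do not tell whether the libraries of a stage came from separate animals, so p-values measure the spread between libraries. The question of the design was how transcripts change from stage to stage as erythroblasts mature.

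The summed FPKM of a library was 505624 to 526044 in Pro and 655594 to 691033 in Ortho, and hemoglobin genes took 6.98 to 10.7% of it in Pro, 33.2 to 36.7% in Baso, 34.8 to 37.6% in Poly and 47.2 to 52.6% in Ortho. Since FPKM values are relative, changes were also computed after leaving out the hemoglobin genes and rescaling each library. This moved the median change over all genes, Ortho against Pro, from -0.42 to -0.028 on the log2 scale. Of the erythroid markers, Slc4a1 was at 427 to 709 FPKM in Pro and 1653 to 1705 in Ortho, and Alas2 at 265 to 428 and 2044 to 2376. Of 4 early markers, Gata2, Cd44 and Myb were higher in Ortho than in Pro (log2 fold changes of 1.02, 0.72 and 0.37), against the order in which these genes are known to be turned down. Kit did not pass the test (-0.28, limma adjusted p = 0.134). Despite the CD45, CD11b and GR1 gate, markers of most other marrow cells were found. Their summed FPKM was higher in Ortho than in Pro, except for the megakaryocyte and platelet markers. The summed FPKM of 10 neutrophil markers, led by S100a9, was 7274 to 9090 in Pro, 12490 to 14666 in Baso, 16092 to 19115 in Poly and 14336 to 17781 in Ortho, with all 10 present at 1 FPKM or more in each stage. For 8 macrophage markers, led by Cd68, the sum was 29.9 to 36.1 in Pro and 63.1 to 74.6 in Ortho. Of these, 4 reached a mean of 1 FPKM in each stage. For 10 B cell markers, led by Vpreb3, the sum was 82.6 to 139 and 198 to 275, with 9 at that level in Pro and 10 in Ortho. The sum of 9 T and NK cell markers was 22.2 to 32.9 and 39.9 to 45.2. Most of it was Nkg7, with means of 23.6 and 35.1, and only 2 of the 9 reached a mean of 1 FPKM in Pro and 3 in Ortho. For 8 megakaryocyte and platelet markers, led by Itga2b, the sum was 77.1 to 137 in Pro and 45.2 to 54.3 in Ortho. No marker of any list was at 0 in every library, and the T cell markers Cd3e and Cd3g stayed under 0.1 FPKM in all 12. The part of these markers in the results on deacetylases was not tested. In sorted bulk samples, fewer cells of a type and less RNA per cell cannot be told apart.

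Class I enzymes are nuclear and mostly work inside corepressor complexes. Hdac1 and Hdac2 serve the NuRD, SIN3, CoREST and MiDAC complexes, and Hdac3 serves the NCoR/SMRT complex. Class IIa enzymes shuttle between nucleus and cytoplasm and bind MEF2 transcription factors, whereas Hdac6 acts mainly on cytoplasmic proteins such as tubulin. During terminal erythropoiesis chromatin condenses before the nucleus is expelled, and histone deacetylation is known to be needed for it. Hdac2 has been tied to this condensation and Hdac6 to enucleation in mouse erythroblasts.

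Of the 10 genes, 7 had an entry in the RefSeq promoter table of build GRCm38.p6. Missing were Hdac1, Hdac3 and Hdac10. The 250 bases upstream of the start are given 5′ to 3′ for Hdac2, Hdac5 and Hdac6. From Pro to Ortho on the deposited scale, Hdac2 (chr10:36974294-36974543, + strand) fell most. Hdac5 (chr11:102230173-102230422, - strand) alone passed there as higher. Hdac6 (chrX:7947890-7948139, - strand) passed as higher at the early steps and as lower at the last. Capitals mark matches to erythroid motifs, namely the GATA motif (AGATAA or its variant with a final G, each also with T as the first base) and the CACCC box (CCNCNCCC), on either strand.
Hdac2: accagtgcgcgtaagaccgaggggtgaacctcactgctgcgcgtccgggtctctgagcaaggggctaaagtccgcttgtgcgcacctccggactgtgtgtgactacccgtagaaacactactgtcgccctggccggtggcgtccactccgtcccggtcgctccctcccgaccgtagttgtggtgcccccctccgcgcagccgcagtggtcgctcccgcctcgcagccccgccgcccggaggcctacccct
Hdac5: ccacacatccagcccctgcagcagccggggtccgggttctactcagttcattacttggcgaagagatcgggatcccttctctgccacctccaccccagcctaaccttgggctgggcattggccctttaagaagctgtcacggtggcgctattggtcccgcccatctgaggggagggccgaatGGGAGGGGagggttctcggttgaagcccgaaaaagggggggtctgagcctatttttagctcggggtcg
Hdac6: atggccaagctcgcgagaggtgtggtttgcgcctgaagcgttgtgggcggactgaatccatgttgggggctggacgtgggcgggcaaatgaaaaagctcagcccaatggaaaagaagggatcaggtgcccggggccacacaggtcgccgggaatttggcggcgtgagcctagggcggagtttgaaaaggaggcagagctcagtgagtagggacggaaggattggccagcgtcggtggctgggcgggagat
No GATA match lay in any of these windows, which says only that these letters are absent from them, and 26.5% of 32851 promoters of the same length held one. Hdac5 had 1 CACCC box match, as 45.9% of all promoters had. The GC box GGGCGG, which can overlap CCNCNCCC on the other strand, matched 1 time in Hdac2, 1 time in Hdac5 and 4 times in Hdac6, and was found in 32.7% of promoters. CCAAT matched 2 times in Hdac5 and in Hdac6 and not in Hdac2 (33.8% of promoters), and the E2F motif TTTNNCGC matched in none of them (4.28%). CpG dinucleotides numbered 27 in Hdac2, 12 in Hdac5 and 17 in Hdac6, against a median of 6 over all entries. A match is a description of letters and does not show that a factor binds.

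The 3 largest falls from Pro to Ortho were those of class I genes. Hdac1, Hdac2 and Hdac3 were the 3 most abundant deacetylases of Pro cells, and each was lower in all 3 Ortho libraries than in all 3 Pro libraries. The share of all tested genes whose libraries separate between stages is not given, here or below, so such separation only describes the libraries. In Ortho against Pro, 53.2% of all tested genes were called lower. Hdac8, the remaining class I gene, was low and did not pass the test at any step.

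Hdac1 (ENSMUSG00000028800, chr4:129516104-129542713) was the most abundant deacetylase of every stage. Its FPKM was 103, 104 and 102 in the Pro libraries, 75.1, 83.6 and 81.0 in Baso, 69.0, 65.5 and 70.3 in Poly, and 50.4, 47.8 and 40.5 in Ortho. The libraries of neighbouring stages did not overlap, so that every stage lay below the one before. From Pro to Ortho the log2 fold change was -1.14 ± 0.082 (SE), with a limma adjusted p of 2.08e-07, and mean FPKM fell to 0.449 of the Pro level. The fall was spread over the steps: Baso against Pro gave -0.36 (adjusted p = 0.00278 by limma), Poly against Baso -0.22 (0.0958) and Ortho against Poly -0.56 (0.000266). With hemoglobin genes left out, the first step was -0.050 and did not pass, while the last step (-0.42) and the whole change (-0.66) still did.

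Hdac2 (ENSMUSG00000019777, chr10:36974544-37001889), the close relative of Hdac1, had its change at the first step. Its FPKM was 64.1, 43.3 and 45.8 in Pro, 25.4, 23.8 and 21.8 in Baso, 19.9, 20.3 and 21.6 in Poly, and 21.0, 16.7 and 17.8 in Ortho. All 3 Pro libraries lay above all 9 others, and the later stages were close to each other. The log2 fold change was -1.06 ± 0.14 for Baso against Pro (limma adjusted p = 5.78e-05), which made up 75.5% of the change to Ortho (-1.40 ± 0.14, adjusted p = 2.36e-06). Poly against Baso (-0.19) and Ortho against Poly (-0.15) did not pass, with adjusted p-values of 0.385 and 0.496 in limma. Without hemoglobin genes the first step was -0.75 and the whole change -0.92, and both passed.

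The ratio of Hdac1 to Hdac2, which does not depend on the scale of a library, moved accordingly. It was 1.60, 2.41 and 2.23 in Pro, 2.95, 3.51 and 3.72 in Baso, 3.46, 3.23 and 3.26 in Poly, and 2.40, 2.86 and 2.27 in Ortho. All Baso and Poly libraries lay above all Pro libraries, and Ortho overlapped Pro. With 3 libraries against 3, an exact two-sided permutation test cannot give a p below 0.1, so the ratios and the shares given later carry no test.

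Hdac3 (ENSMUSG00000024454) is the catalytic subunit of the NCoR/SMRT complex. Its FPKM was 26.6, 36.2 and 33.2 in Pro, 21.5, 16.4 and 24.3 in Baso, 19.0, 22.1 and 20.6 in Poly, and 14.9, 14.9 and 16.9 in Ortho. Pro lay above every other library, Baso and Poly overlapped, and Ortho lay below Poly. Relative to Pro, the change on the log2 scale was -0.61 ± 0.14 in Baso (limma adjusted p = 0.00358) and -0.98 ± 0.14 in Ortho (6.46e-05). Ortho against Poly was -0.38 and did not pass (adjusted p = 0.0776 in limma), although it did without Pro library 1 or Baso library 2 (0.0493 and 0.035), in a fit of these 2 stages only (0.0155) and with libraries at the same sum (-0.55, 0.0113). On the scale without hemoglobin the Baso change was -0.30 and no longer passed, and the Ortho change was -0.51 and did.

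Hdac8, an X-linked class I enzyme known to act on cohesin, ranged over 2.68 to 5.45 FPKM in the 12 libraries. The stage means were 3.81 ± 0.47 in Pro, 3.72 ± 0.65 in Baso, 3.45 ± 0.67 in Poly, then 4.41 ± 0.94 in Ortho (mean ± SD of 3 libraries). These ranges overlapped, and Ortho against Pro was 0.16 ± 0.16 on the log2 scale (limma adjusted p = 0.382). Leaving out hemoglobin genes gave 0.55, which passed.

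**Figure D1:**
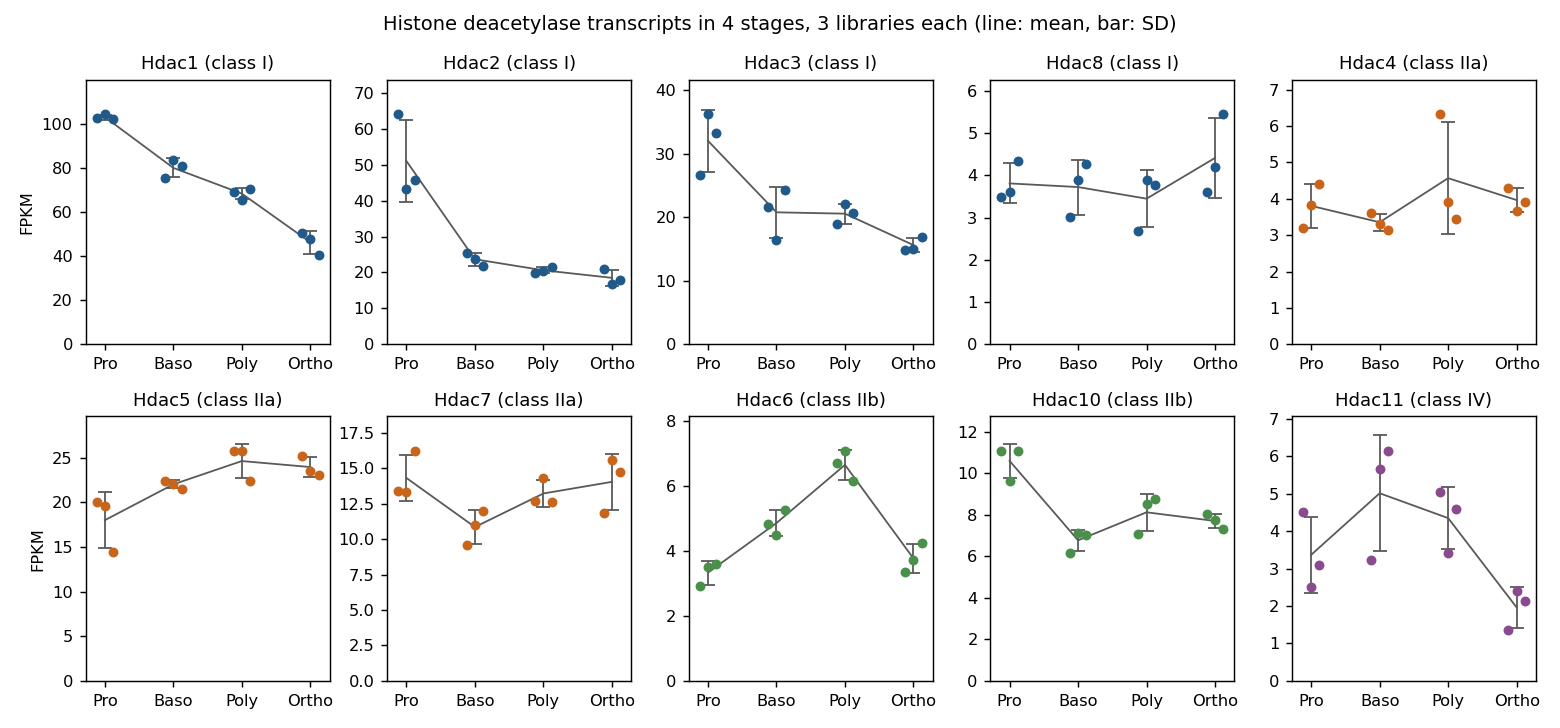
FPKM of the 10 deacetylase genes (vertical axis, from 0, scaled per gene) in the 4 stages (horizontal axis), with 1 point per library, a line through the stage means and bars of 1 SD. Hdac1 stepped down at every stage from 103 to 46.2 on average, Hdac2 fell at once from 51.1 to 23.7 in Baso, Hdac5 went from 18.0 to 24.0, and Hdac6 peaked at 6.65 in Poly.

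No class IIa gene passed as lower from Pro to Ortho on the deposited scale, although Hdac7 did when libraries were rescaled to the same sum. Hdac5 was the only one of the 10 genes that passed as higher in Ortho than in Pro on the deposited scale. Neither Hdac4 nor Hdac7 passed that comparison.

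Hdac5 (ENSMUSG00000008855, chr11:102194432-102230166), known as a signal-dependent repressor in heart and muscle, had an FPKM of 19.99, 19.6 and 14.4 in Pro, 22.4, 22.1 and 21.5 in Baso, 25.7, 25.8 and 22.4 in Poly, and 25.2, 23.5 and 23.1 in Ortho. Every library of the later stages lay above every Pro library, and Pro library 3 was the lowest of all. The log2 fold change was 0.41 ± 0.11 for Ortho against Pro (limma adjusted p = 0.006). Rescaling each library to the same sum reduced it to 0.053, which did not pass, whereas leaving out hemoglobin raised it to 0.87, which did. Baso against Pro gave 0.29 (adjusted p = 0.044 by limma), and this call was lost in 9 of 12 fits that each left out 1 library. The lost fits were those without Pro library 3, without any 1 of the Baso or Ortho libraries and without Poly library 1 or 2, with limma adjusted p-values of 0.0521 to 0.164. Without Pro library 3 the change was 0.15.

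Relative to Hdac2, Hdac5 changed places. The ratio of Hdac5 to Hdac2 was 0.31, 0.45 and 0.31 in Pro, 0.88, 0.93 and 0.99 in Baso, 1.29, 1.27 and 1.04 in Poly, and 1.20, 1.41 and 1.30 in Ortho. It was below 1 in all Pro and Baso libraries and above 1 in all Poly and Ortho libraries.

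Hdac7 (ENSMUSG00000022475, chr15:97792664-97844502), which is best known from endothelium and thymocytes, dipped in Baso. Its FPKM was 13.4, 13.3 and 16.2 in Pro, 9.58, 10.96 and 12.01 in Baso, 12.7, 14.3 and 12.6 in Poly, and 11.8, 15.6 and 14.7 in Ortho. The Baso libraries lay below all Pro and Poly libraries, and Ortho overlapped Pro. Baso against Pro was -0.37 ± 0.12 (limma adjusted p = 0.021), and -0.28 without Pro library 3 and -0.29 without Baso library 1, neither of which passed (adjusted p = 0.0869 and 0.0848 by limma). It was -0.076 without hemoglobin genes, which did not pass either. Ortho against Pro was -0.029 (adjusted p = 0.834 in limma). It passed in opposite directions on other scales, at 0.43 without hemoglobin genes and -0.37 with libraries at the same sum.

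Hdac4 (ENSMUSG00000026313, chr1:91928779-92195699), a partner of MEF2 factors in muscle and bone, was found at 3.16 to 6.33 FPKM. Poly library 1 held the highest value, and the other 11 libraries ranged from 3.16 to 4.41. No step passed, and Ortho against Pro was 0.053 ± 0.17 (limma adjusted p = 0.785). Exons of Gm26720, a noncoding gene on the opposite strand, cover 22.4% of its exonic bases, and the strand setting of the counting is not given in the sources used here, so reads of the pair cannot be told apart. Hdac9, the remaining class IIa gene of the mouse, is no member of the set and was looked up after the values were seen. It was at 0.24 to 1.78 FPKM in Pro and 1.96 to 2.37 in Ortho, a difference of 0.93 on the log2 scale (adjusted p = 0.018 by limma).

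The class IIb genes went opposite ways at the first step. Hdac6 rose while Hdac10 fell. On the deposited scale Hdac6 alone of the 10 genes passed first as higher and later as lower. Without hemoglobin genes and with median centring, Hdac11 did so as well.

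Hdac6 (ENSMUSG00000031161, chrX:7930120-7947889) had an FPKM of 2.91, 3.51 and 3.59 in Pro, 4.82, 4.50 and 5.27 in Baso, 6.72, 7.08 and 6.16 in Poly, and 3.35, 3.72 and 4.25 in Ortho. All Poly libraries lay above all Baso libraries, all Baso libraries lay above those of Pro and Ortho, and Ortho overlapped Pro. Baso against Pro gave 0.44 ± 0.11 on the log2 scale (limma adjusted p = 0.00447) and Ortho against Poly -0.68 ± 0.11 (0.000418). Both passed on all 4 scales tried. The step from Baso to Poly was 0.38 ± 0.11 (adjusted p = 0.0399 by limma). This step was lost in 7 of 12 fits with 1 library left out, those without any 1 of the Baso or Poly libraries and without Ortho library 2, where the change was 0.34 to 0.43 with limma adjusted p-values of 0.0538 to 0.122. Ortho against Pro was 0.14 (adjusted p = 0.258 in limma), and 0.52 without hemoglobin genes, which passed.

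Hdac10 (ENSMUSG00000062906, chr15:89123307-89128700), a deacetylase known for acting on polyamines, had an FPKM of 11.1, 9.65 and 11.1 in Pro, 6.17, 7.13 and 7.00 in Baso, 7.09, 8.53 and 8.74 in Poly, and 8.02, 7.77 and 7.32 in Ortho. All Pro libraries lay above all others, and Baso held the lowest mean. Baso against Pro was -0.58 ± 0.098 (limma adjusted p = 0.000426) and Ortho against Pro -0.41 ± 0.098 (0.00238). The Baso change passed on every scale (-0.29 without hemoglobin genes). The Ortho change was 0.031 without hemoglobin genes, of the other sign, and did not pass there. The ratio of Hdac6 to Hdac10 was 0.26 to 0.36 in Pro, 0.63 to 0.78 in Baso, 0.70 to 0.95 in Poly and 0.42 to 0.58 in Ortho, so that Pro lay below every other library.

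Hdac11 (ENSMUSG00000034245, chr6:91156665-91174692), the only class IV gene and an enzyme that removes fatty acyl groups, varied widely among the libraries of a stage. Its FPKM was 4.50, 2.52 and 3.09 in Pro, 3.24, 5.65 and 6.15 in Baso, 5.04, 3.42 and 4.59 in Poly, and 1.35, 2.40 and 2.14 in Ortho. The 3 Ortho libraries were the lowest of the 12, and the other stages overlapped each other. Baso against Pro was 0.45 and did not pass, but it passed without Pro library 1 (0.63), without Baso library 1 (0.68) and without hemoglobin genes (0.69). Ortho against Poly was -0.86 ± 0.23 (limma adjusted p = 0.0164), and the call was lost in the fits without Poly library 1, Poly library 3 or Ortho library 1, at -0.76, -0.82 and -0.70. Ortho against Pro was -0.55 ± 0.23 (adjusted p = 0.0477 by limma) and was lost in 7 of 12 such fits, those without Pro library 1 or 3, Baso library 2, Poly library 1 or 3, or Ortho library 1 or 3. The change was then -0.60 to -0.37, with limma adjusted p-values of 0.0531 to 0.183, and without hemoglobin genes it was -0.20 and did not pass. Gm44002 and Gm14573, on the opposite strand, share 15.4% and 2.49% of its exonic bases, which makes its values uncertain in the same way as those of Hdac4. The overlaps of Hdac5 with Mir8101 (1.26%) and of Hdac7 with Slc48a1 (0.429%) are small.

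The calls were counted over the family at each step. In Baso against Pro, 2 of 10 genes rose (Hdac5 and Hdac6), where 14.9% of all tested genes did, and 5 fell (Hdac1, Hdac2, Hdac3, Hdac7 and Hdac10), where 42.1% of all genes did. In Poly against Baso, 1 gene rose (Hdac6, beside 6.58% of all genes) and 0 fell (5.77%). At an unadjusted p under 0.05 in the same limma fit, 3 would have been called higher (Hdac6, Hdac7 and Hdac10) and 1 lower (Hdac1). In Ortho against Poly, 0 rose (4.43%), also at an unadjusted p under 0.05 in limma, and 3 fell, namely Hdac1, Hdac6 and Hdac11 (21.7%).

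Over the whole course, Ortho against Pro, 1 of 10 rose (Hdac5, beside 22.7% of all genes) and 5 fell (Hdac1, Hdac2, Hdac3, Hdac10 and Hdac11, beside 53.2%). Of the 5, Hdac1 and Hdac2 were at least 2-fold lower on the log2(FPKM + 1) scale, which held for 23.8% of all genes. These shares lie near the background of each step and are no result about the family as a whole. The median log2 fold change of the 10 genes was -0.25, 0.077 and -0.14 at the 3 steps and -0.22 from Pro to Ortho, and that of all genes was -0.23, 0.034, -0.078 and -0.42.

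**Figure D2:**
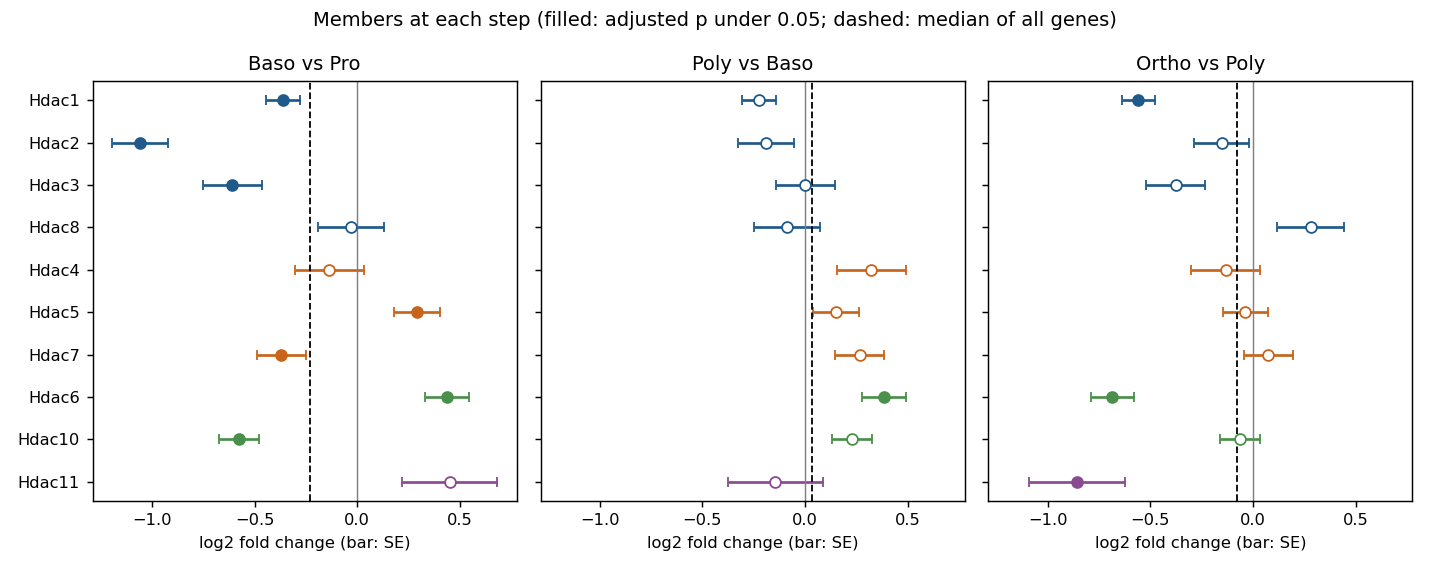
Log2 fold change of log2(FPKM + 1) with its SE for the 10 genes (rows) at each step, filled where the limma adjusted p was under 0.05, with a dashed line at the median of all genes. Baso against Pro has 7 filled points, with Hdac2 farthest to the left at -1.06, Poly against Baso has 1 (Hdac6), and Ortho against Poly has 3.

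The composition of the family does not depend on how a library is scaled, and it changed at each stage. On the deposited scale the 10 genes together had 243 ± 7.42 FPKM in Pro, 181 ± 5.76 in Baso, 174 ± 0.30 in Poly, then 140 ± 3.95 in Ortho (mean ± SD of 3 libraries). This sum, unlike the shares, depends on the scale. Without hemoglobin genes, the falls of Hdac1, Hdac2 and Hdac3 from Pro to Ortho were smaller, as given above. Class I made up 77.8 to 78.1% of the summed FPKM in the Pro libraries, 70.4 to 71.5% in Baso, 63.5 to 66.7% in Poly and 59.3 to 62.4% in Ortho. Class IIa made up 14.5 to 15.3%, 19.7 to 20.4%, 22.1 to 25.7% and 28.7 to 30.7%. For both classes no library of one stage reached the range of another, so that class I lost and class IIa gained share at each of the 3 steps.

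Within class IIa, Hdac5 went from 7.39 ± 1.17% of the family in Pro to 17.1 ± 0.39% in Ortho, and Hdac7 from 5.89 ± 0.80% to 10.04 ± 1.58% (SD, n = 3). Within class I, Hdac2 went from 20.9 ± 3.98% in Pro to 13.1 ± 1.43% in Baso and stayed at 11.8 and 13.2% later. Hdac1 was at 42.4 ± 1.44% in Pro and 44.2 ± 1.70% in Baso, with overlapping libraries, and reached 32.9 ± 2.80% in Ortho. Class IIb held 5.49 to 6.16% in Pro and 7.90 to 8.49% in Ortho, without overlap. Class IV held 1.05 to 1.79% in Pro and 0.94 to 1.71% in Ortho, with overlap.

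**Figure D3:**
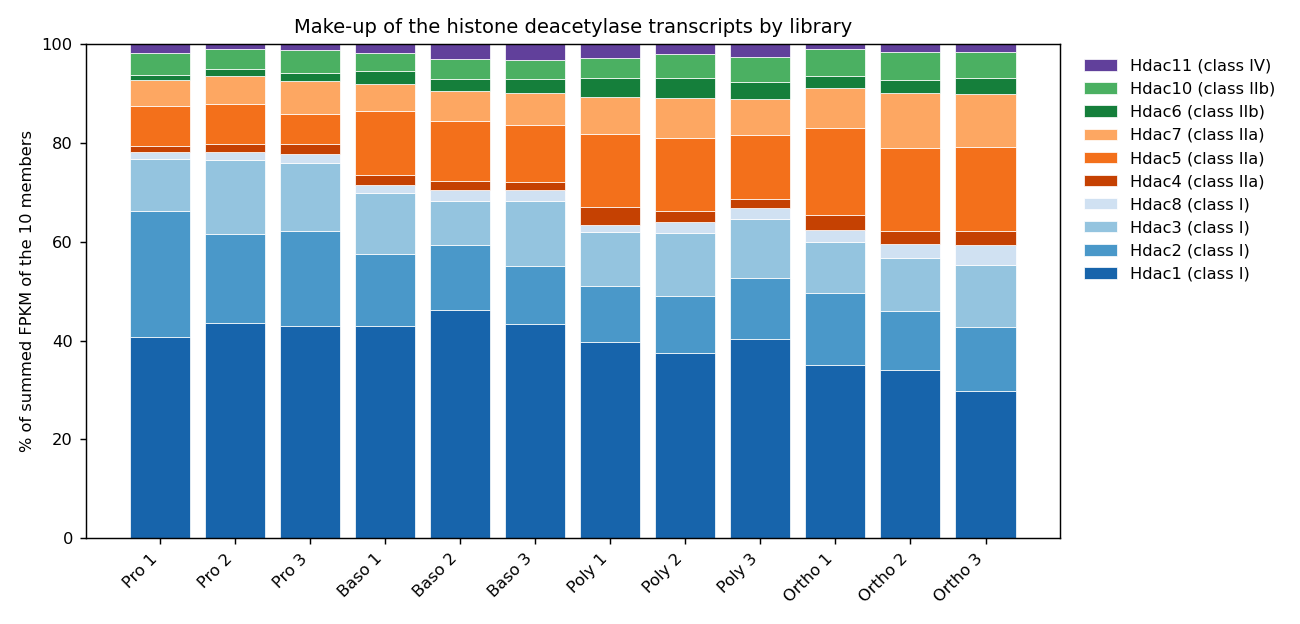
Share of each gene in the summed FPKM of the 10 deacetylase genes (vertical axis, percent) in each of the 12 libraries (bars), stacked and coloured by class. The class I part shrinks from 78.0% in Pro to 60.4% in Ortho, and the class IIa part grows from 14.9% to 30.0%.

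The order of levels per length shifted with it. In Pro, Hdac1, Hdac2, Hdac3 and Hdac5 followed each other, the first 3 with separate ranges and Hdac5 below them. Hdac5 and Hdac7 overlapped in Pro, and Hdac10 came next without overlap on either side. Below it, Hdac8, Hdac4, Hdac11 and Hdac6 followed, each overlapping the next. In Baso, Hdac2 overlapped Hdac5 and Hdac5 overlapped Hdac3, with Hdac1 above and Hdac7 below them without overlap. In Poly and Ortho, Hdac5 came second with its range above that of Hdac2, whereas Hdac2 and Hdac3 overlapped. In Ortho, Hdac3 also overlapped Hdac7, and Hdac11 came last below Hdac6 without overlap. Among all tested genes, Hdac1 stood above 94.7% in Pro and 90.7% in Ortho, and Hdac5 above 65.1% and 81.3%.

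How many members rose or fell from Pro to Ortho depended on the scale. Without hemoglobin genes, 5 rose (Hdac4, Hdac5, Hdac6, Hdac7 and Hdac8) and 3 fell (Hdac1, Hdac2 and Hdac3), beside 34.3% and 34.8% of all genes. Rescaling each library to the same sum, hemoglobin included, gave 0 higher and 6 lower (Hdac1, Hdac2, Hdac3, Hdac7, Hdac10 and Hdac11), beside 14.7% and 63.4%, and moved the median of all genes to -0.72. Centring each library on its median gave the same counts as leaving out hemoglobin, 5 and 3. Hdac1, Hdac2 and Hdac3 were lower, and passed, on all 4 scales. The others changed call or sign on at least one scale, Hdac5 among them, although its log2 fold change stayed above 0 on all 4.

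**Figure D4:**
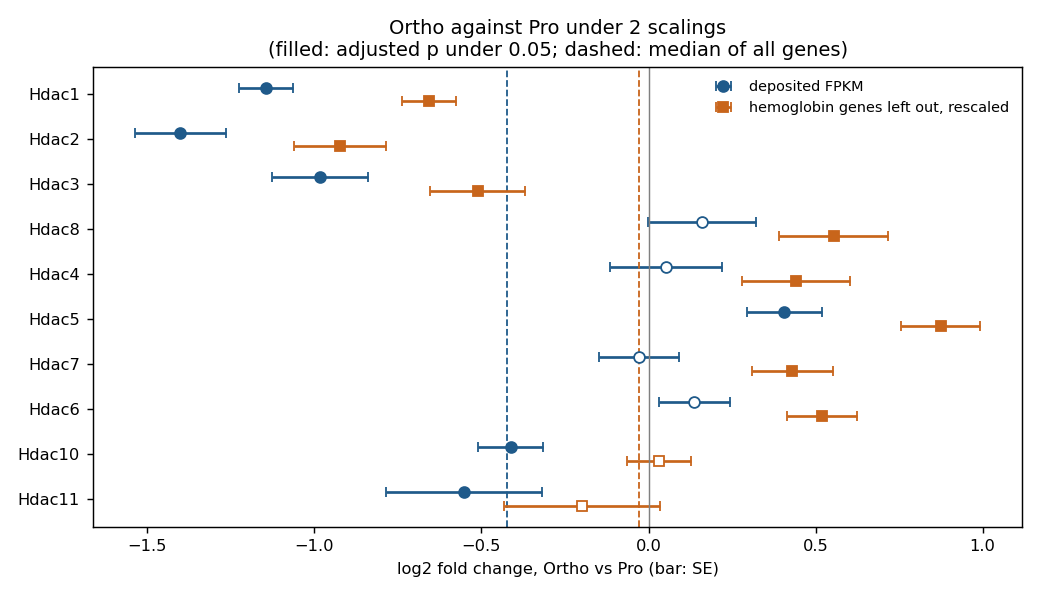
Log2 fold change with its SE, Ortho against Pro, of the 10 genes on 2 scales (deposited, hemoglobin genes left out). Hdac1, Hdac2 and Hdac3 lie left of 0 on both scales (Hdac2 at -1.40 and -0.92), and Hdac5 lies right of 0 on both (0.41 and 0.87).

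Genes that work with the deacetylases were counted by complex in Ortho against Pro. On the deposited scale each count is to be read against 22.7% of all genes higher and 53.2% lower. Without hemoglobin genes the shares over all genes were 34.3% higher and 34.8% lower, with a median log2 fold change of -0.028. Counts of 0 given for a list were also 0 at an unadjusted p under 0.05 in limma. Of the 11 NuRD genes tested, 0 rose and 9 fell, with a median log2 fold change of -1.09 against -0.42 for all genes. Mbd2, the methyl-CpG reader of the complex and its most abundant listed gene, had 153 ± 2.35 FPKM in Pro and 60.5 ± 1.73 in Ortho (log2 fold change -1.33, limma adjusted p = 1.03e-08). Mta2, a scaffold subunit, fell most, from 137 ± 4.97 to 50.8 ± 1.33 FPKM (-1.41, 1.99e-08). Gatad2b, at 10.3 FPKM in Pro and 11.3 in Ortho, did not pass (0.15). Without hemoglobin genes 8 of the 11 still fell, with a median of -0.60, and 2 rose (Mta3 and Chd3).

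The SIN3 complex, which also carries Hdac1 and Hdac2, had 0 of 13 genes higher and 9 lower (median -0.58). Brms1l had its largest change, from 12.8 to 3.70 FPKM (-1.56, limma adjusted p = 1.35e-07), Suds3, with the highest mean over the 12 libraries, went from 37.9 to 30.0 FPKM (-0.33, 0.00214), and Arid4b did not pass (0.21). Without hemoglobin genes the counts were 4 higher and 5 lower, with a median of -0.11. CoREST had 1 of 9 genes higher and 5 lower (median -0.48), and 3 and 3 without hemoglobin genes. Rcor1, its scaffold, fell from 32.7 to 13.6 FPKM (-1.20, limma adjusted p = 1.35e-07). Phf21a, its reader of unmethylated histone H3, rose from 5.85 to 9.21 FPKM (0.57, 0.000672). Hmg20b, known to hold back erythroid differentiation, fell from 29.6 to 18.3 FPKM (-0.66), which without hemoglobin genes was -0.19 and did not pass.

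The NCoR/SMRT complex of Hdac3 was split, with 1 of 6 genes higher and 3 lower (median -0.093). Gps2 had 110, 117 and 104 FPKM in the Pro libraries and 31.7, 37.8 and 37.2 in Ortho (-1.61, limma adjusted p = 2.14e-08), and most of this fall came between Poly and Ortho (-1.27). Coro2a had 8.23, 10.9 and 7.12 FPKM in Pro and 19.6, 23.7 and 20.1 in Ortho (1.20, 7.79e-06). Both kept their direction and passed without hemoglobin genes, where the counts were 3 higher and 2 lower. Of 3 MiDAC genes, the smallest list, Dnttip1 rose from 33.3 to 55.9 FPKM (0.75, limma adjusted p = 0.000674) and Trerf1 rose as well (0.65), while Elmsan1, the older symbol of Mideas, fell (-0.62) and did not pass without hemoglobin genes.

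Partners of the class IIa enzymes comprise MEF2 factors, the Ywha adaptor proteins that hold phosphorylated class IIa enzymes in the cytoplasm, and the kinases of the Prkd and Sik families that phosphorylate them. Of 14 tested, 5 rose and 6 fell (median 0.16), and 10 rose and 3 fell without hemoglobin genes. The kinase gene Sik1 rose from 10.8 ± 2.06 to 23.9 ± 4.798 FPKM (1.07, limma adjusted p = 0.000294), and Mef2c, Prkd2, Sik3 and Ywhaz were the others that rose. Ywhah, the most abundant of the list by its mean over the 12 libraries, fell from 173 to 87.7 FPKM, and its change lay between Poly and Ortho (-1.08). Ywhaq fell from 127 to 61.1 FPKM (-1.05), with most of the change between Pro and Baso (-0.78). Prkd1 was not found in the table by this symbol, and Mef2b did not reach the level for testing.

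The NAD-dependent sirtuins, a separate deacetylase family, had 0 of 7 genes higher and 5 lower (median -0.68), and 2 higher and 2 lower without hemoglobin genes. Sirt1 fell from 20.8 to 9.18 FPKM (-1.10, limma adjusted p = 2.06e-06), and Sirt7, the most abundant at 28.5 and 26.4 FPKM, did not pass (-0.11), nor did Sirt5 (0.30). The acetyltransferases, which add what deacetylases remove, had 2 of 11 genes higher and 7 lower (median -0.48), and 3 and 3 without hemoglobin genes. The 2 that rose were the coactivator pair Crebbp, from 5.41 to 10.2 FPKM (0.81, 0.000517 in limma), and Ep300 (0.57). Hat1, which acetylates newly made histones, fell from 111 ± 8.30 to 28.9 ± 1.43 FPKM (-1.90, limma adjusted p = 1.03e-08).

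**Figure D5:**
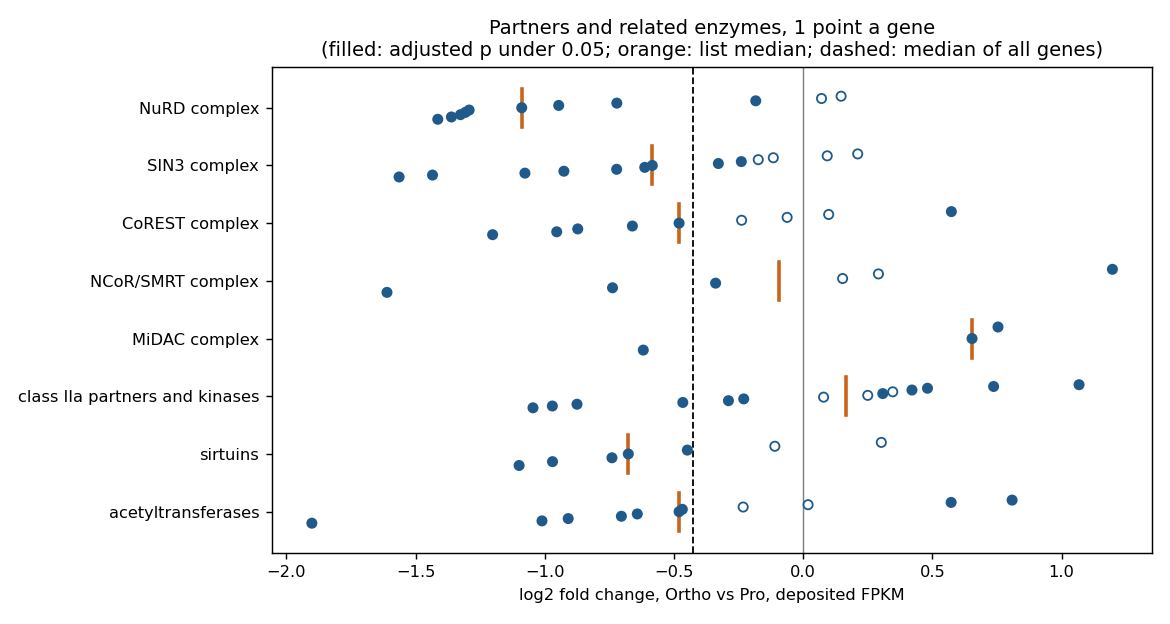
Log2 fold change, Ortho against Pro, of each tested gene (points) in 8 lists of deacetylase partners and related enzymes (rows), filled where the limma adjusted p was under 0.05. NuRD genes lie farthest to the left with a median of -1.09, and the class IIa partners spread on both sides of 0 with a median of 0.16.

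The genes whose profile over the 12 libraries was most like that of Hdac5 and of Hdac2 were found by the root mean square difference of centred log2(FPKM + 1), among 6011 genes with a mean of at least 10 FPKM. For Hdac5 they were Sp110 (0.088), Grk2 (0.091) and Anks1 (0.092), with Sp110 going from 19.7 FPKM in Pro to 26.2 in Ortho. For Hdac2 they were Sf3b5 (0.097), Lars (0.10) and Atp5b (0.11). Like Hdac2, these 3 had their largest fall at the first step: Sf3b5 went from 25.1 FPKM in Pro to 12.5 in Baso and 9.59 in Ortho, and Lars from 30.2 to 14.8 and 11.1.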

How the data were processed

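RNA was sequenced from sorted Pro, Baso, Poly and Ortho erythroblasts. Per the labels and the study's methods, the authors used Cutadapt and Trimmomatic to trim reads, HISAT2 to align them to mm10, SAMtools and featureCounts to count them, and deposited FPKM values per gene. The tool that made the FPKM and its annotation are not given in the sources used here, and the methods (Geek lysis, KAPA kit) and labels (Trizol, NEBNext kit) differ on library preparation. Of 29839 lines, 1 repeated identifier was removed. Among 825 genes under 0.03 FPKM, ratios between libraries showed no steps of whole fragments (the fullest bin of width 0.1 held 4.12%), so depth is unknown and no counting error is given.

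Genes with at least 1 FPKM in at least 3 libraries entered a limma fit (version 3.58.1, R 4.3.3) of log2(FPKM + 1) over all 12 libraries, with stage as the only term, a variance trend, two-sided p-values and Benjamini-Hochberg adjustment over 12994 genes. "Passed" means an adjusted p under 0.05. A fold change on this scale understates changes of low genes. The DESeq2 test of the authors needs counts and was not repeated. The fit was tested on simulated data. Positions and exon overlaps came from GENCODE M21 and promoters from RefSeq (GRCm38.p6), and figures were drawn with matplotlib 3.10.9 in Python 3.11.15.

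The members and lists were chosen with earlier results of these data known. Named were all members, the most abundant gene of each list and those with its highest and lowest log2 fold change from Pro to Ortho, the 3 nearest profiles of the members with the most positive and most negative change from Pro to Ortho, and the leading marker of each cell type. Mef2c, Prkd2, Sik3, Ywhaz, Trerf1, Ep300, Mta3, Chd3, Cd3e, Cd3g, Kit, Gata2, Cd44, Myb, Alas2 and Hdac9 were named after their values were seen. The sum of the erythroid marker list is not reported here. Deviations of same-numbered libraries from their stage means correlated at 0.156 to 0.319 among Baso, Poly and Ortho, and at 0.00524 to 0.0968 with Pro. By these values, same-numbered libraries of the later 3 stages may be paired, while the labels give no reason for a pairing. The main fit used no pairing, and fits with a replicate block are given below. Alternatives were other pseudocounts (0.1 and 5), other filters, 3 other scalings, no variance trend, fits of 2 stages only, a replicate block and leaving out each library.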

Additional observations from a re-analysis of the deposited data

How the results depend on the processing

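Of the 40 member results (10 genes at 4 comparisons), 40 kept direction and side of the threshold at a pseudocount of 0.1, 38 at 5, 35 with no filter on low values, 39 without the variance trend and 38 in fits of 2 stages. Scaling mattered more: 30 were kept with libraries of the same sum, 26 without hemoglobin genes and 22 with libraries centred on their median. A filter on mean FPKM of at least 5 left 24 results, all kept.

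The count of members that rose in Baso against Pro was 1 with no filter, the mean filter, the same sum, no trend or 2 stages, and 1 to 3 with a library left out. In Poly against Baso, 0 rose with no filter, the mean filter, the same sum or median centring, and 0 to 1 with a library left out, while 1 gene (Hdac1) fell with median centring. In Baso against Pro, 2 fell without hemoglobin genes or with median centring. In Ortho against Poly, 1 fell under the mean filter. Hdac4, Hdac6, Hdac8 and Hdac11 were not tested under that filter, so its lower counts reflect genes left out and not lost calls. In Ortho against Pro, 0 rose with the same sum, and 5 rose and 3 fell without hemoglobin genes or with median centring. Of the listed partner genes, 11 rose and 45 fell in Ortho against Pro, against 6 higher with the same sum, 29 higher and 26 lower without hemoglobin genes, and 25 and 29 with median centring.

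Signs that changed were of small values that did not pass, except Hdac7 in Ortho against Pro (0.43 without hemoglobin genes and 0.37 median centred, both passed, beside -0.029 on the deposited scale) and Hdac10 there (-0.41, which passed, and 0.031 without hemoglobin genes). With the same sum, Ortho against Pro was -0.14 in Hdac8, -0.24 in Hdac4 and -0.15 in Hdac6, and Hdac7 was -0.10 in Ortho against Poly, while Hdac7 in Ortho against Pro was -0.37 and passed. Hdac3 in Poly against Baso was -0.00155 at a pseudocount of 5, -0.000562 with the same sum and -0.048 median centred. In Baso against Pro, Hdac8 was 0.21 and Hdac4 0.11 without hemoglobin genes, and 0.27 and 0.16 median centred. In Ortho against Poly, Hdac5 was 0.10 and Hdac10 0.065 without hemoglobin genes, and Hdac4, Hdac5 and Hdac10 were 0.016, 0.11 and 0.085 median centred. With a library left out, signs changed within -0.12 to 0.083 (Hdac8, Baso against Pro), -0.15 to 0.12 (Hdac3, Poly against Baso), -0.20 to 0.042 (Hdac8, Poly against Baso), -0.28 to 0.083 (Hdac4, Ortho against Poly), -0.042 to 0.14 (Hdac4, Ortho against Pro) and -0.10 to 0.081 (Hdac7, Ortho against Pro). Hemoglobin took a larger part of the sum in Ortho than in Pro, and its part in the shifts between scalings was not tested. The cause of the other changes was not tested either.

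With the replicate block in a fit of Baso, Poly and Ortho, 20 of 20 member results were kept. With the replicate block over all 12 libraries 39 of 40 were, and Hdac11 in Ortho against Pro (-0.55) no longer passed. No depth is known, so that the level below which a member is undetectable cannot be given.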
